A study of Arabidopsis thaliana with 12 samples.

Results

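The genes described here are 7 loci of the early flavonoid pathway of Arabidopsis thaliana, 4 enzymes and 3 regulators, out of 32673 genes in the deposited count table. The rule that picks them names loci by function and uses no measured value, although the set was proposed with earlier results of these data known. They are TT4 (AT5G13930, chalcone synthase), TT5 (AT3G55120, chalcone isomerase), F3H (AT3G51240, flavanone 3-hydroxylase), FLS1 (AT5G08640, flavonol synthase) and the MYB factors MYB11 (AT3G62610), MYB12 (AT2G47460) and MYB111 (AT5G49330). Of the 7, 6 passed the filter on low counts and were tested, and MYB11 did not.

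RNA was sequenced from whole 7-day-old seedlings of the accession Nossen (No-0) in 12 libraries, 3 in each of 4 groups. The groups were wild type in paclobutrazol (PAC), wild type in PAC with gibberellin A3 (PAC+GA3), and the line 35S::KNAT1 in each of these media. All seedlings, controls included, had spent 18 h in liquid medium with 10 µM PAC, which blocks gibberellin synthesis, followed by 5 h in the same PAC medium or in PAC plus 100 µM GA3, so no group was free of PAC. The line carries KNAT1, a class I KNOX homeodomain factor, under the viral 35S promoter, which drives expression in most tissues, and how many independent lines were used is not given in the sources used here. Whether the replicates were separate cultures is not stated, and p-values here therefore speak only of the variation among these libraries, some or all of which may be technical. Levels are CPM, the counts scaled to library size by TMM. Tests are edgeR quasi-likelihood tests, and called means a Benjamini-Hochberg adjusted p, over all 19879 genes tested, that is below 0.05.

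In this pathway chalcone synthase makes the first flavonoid, naringenin chalcone, from a coumaroyl ester of the phenylpropanoid pathway. Chalcone isomerase closes its ring, flavanone 3-hydroxylase turns the product into a dihydroflavonol, and flavonol synthase oxidises dihydroflavonols to flavonols, the main flavonoids of Arabidopsis seedlings besides anthocyanins. MYB11, MYB12 and MYB111 are closely related activators of these early genes, with MYB12 known mainly from roots and MYB111 from cotyledons, and the light-signalling factor HY5 is known to act on MYB12 and on the enzyme genes.

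The MYB factors are known to bind elements of the ACCTAC type and HY5 to bind elements such as CACGTG, so the 500 bases before each coding start were searched for both strings on both strands. The sequence is the RefSeq TAIR10.1 assembly of the accession Columbia, not of the Nossen plants, and its nuclear coordinates are those of TAIR10. ACCTAC was found for 4 of the 7 genes (TT4, TT5, F3H and MYB111) and for 8.7% of 27443 coding genes. CACGTG was found for 3 of the 7 (TT5, F3H and MYB12) and for 9.3% of coding genes, and the related strings ACCAAC and ACCTAA for 2 of the 7 each and for 21.4% and 24.0%. Shown are 30 bases around ACCTAC in the 3 enzyme genes that hold it and around CACGTG in MYB12, the regulator that was higher in 35S::KNAT1, read 5′ to 3′ on the gene's strand with the searched letters in capitals. TT4 at chr5:4488606-4488635 (+) lies inside an annotated transcript, TT5 at chr3:20431499-20431528 (−) inside one, and F3H at chr3:19025022-19025051 (+) and MYB12 at chr2:19476196-19476225 (+) outside.
TT4: cccgtccatctaACCTACcacactctcatc
TT5: gtaactattgctACCTACccttctctcttc
F3H: catgtgtctactACCTACggtgtaaacgaa
MYB12: tcttacaccacaCACGTGtcatcatctcct
Not shown is a second ACCTAC in F3H, on the other strand at chr3:19025255-19025284 and inside an annotated transcript. A second CACGTG in MYB12, at chr2:19475975-19476004 and outside, is not shown either. The CACGTG of TT5 and F3H and the ACCTAC of MYB111 are also left out. None of the 4 strings occurs in the window of FLS1 or MYB11. That says only that these letters are not within those bases, and a match is a description of the sequence, not a binding site.

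The libraries held between 9232836 and 14053594 counts, and 12 of 12 bore out their genotype label: KNAT1 stood at 20.7 and 22.2 CPM in wild type and at 423 and 437 CPM in 35S::KNAT1 (group means, PAC and PAC+GA3). The gibberellin synthesis genes GA20OX2 and GA3OX1 and the gibberellin response regulator SCL3 fell after GA3 in both genotypes. In 3 libraries the share of the rRNA gene AT3G41768 was high, from 0.347% to 1.435% against 0.11% to 0.197% in the rest, and results are also given without them. They were replicates 2 and 3 of wild type under PAC and replicate 1 of 35S::KNAT1 with GA3. The summed level of 6 green tissue markers was 34000 to 44200 CPM in the wild-type libraries and 16400 to 21700 CPM in the 35S::KNAT1 libraries. All 6 were called lower in 35S::KNAT1 in both media. In these comparisons 25.2% (PAC) and 25.5% (PAC+GA3) of all tested genes were called, in either direction. Of 5 root markers 1, EXPA7, was called higher, and the seed coat markers BAN, TT2 and TT12 had 0 counts in every library.

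Per kilobase of exon, TT4 was the highest of the 7 genes, at a mean of 74.5 CPM per kb over the 12 libraries, above 92.5% of the tested genes with a known length. TT5 followed at 32.5, and FLS1 and F3H were close to each other at 20.7 and 19.8 CPM per kb. The order of FLS1 and F3H was not the same in all groups. In wild type under PAC, F3H stood at 24.3 ± 3.28 and FLS1 at 22.8 ± 2.25 CPM per kb (SD, n = 3), which did not differ beyond their spread, whereas under PAC in 35S::KNAT1 they stood at 18 ± 1.35 and 24.2 ± 3.09 CPM per kb (SD, n = 3). The regulators were far lower, with MYB12 at 3.98 and MYB111 at 1.87 CPM per kb, above 27.1% and 14.3% of tested genes.

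**Figure D1:**
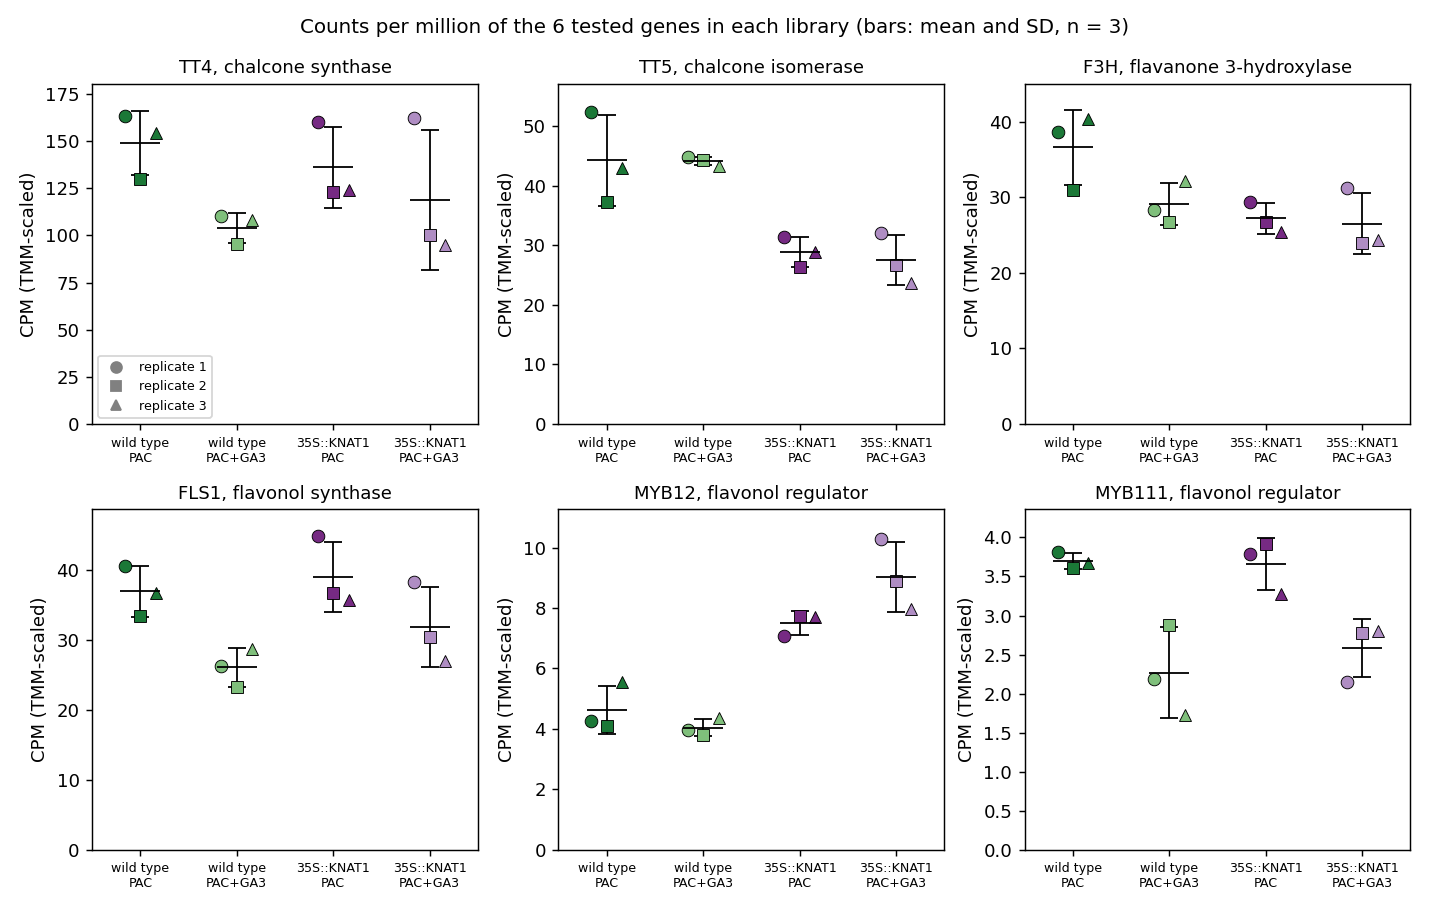
TMM-scaled CPM of the 6 tested genes in each of the 12 libraries, by group, with the replicate number as the symbol and the mean and SD of 3 replicates as bars. TT5 is lower and MYB12 higher in every 35S::KNAT1 library than in every wild-type library, and MYB111 is lower in every PAC+GA3 library than in every PAC library. MYB11, with 0 to 3 counts a library, is not drawn.

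TT5, the chalcone isomerase gene (chromosome 3, 20430114 to 20431470, TAIR10), was lower in 35S::KNAT1 than in wild type in both media. Under PAC its level was 52.4, 37.3 and 43 CPM in wild-type replicates 1 to 3 and 31.3, 26.3 and 28.8 CPM in 35S::KNAT1. Under PAC+GA3 it was 44.7, 44.3 and 43.3 CPM in wild type and 32, 26.6 and 23.7 CPM in 35S::KNAT1. Every 35S::KNAT1 library lay below every wild-type library, in each medium and across both. The log2 difference was -0.62 ± 0.12 (SE, adjusted p = 0.00106) under PAC and -0.68 ± 0.12 (SE, adjusted p = 0.000446) under PAC+GA3, so the 35S::KNAT1 level was 0.65 and 0.623 times that of wild type. Both calls were also made in all 20 alternative analyses, with adjusted p between 4.74e-05 and 0.00928 under PAC and between 1.22e-05 and 0.00379 under PAC+GA3. In whole seedlings, fewer cells that express the gene and less of its RNA per cell cannot be told apart. The green tissue markers were lower in the same libraries, and their part in this difference was not tested.

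F3H, which makes dihydroflavonols (chromosome 3, 19025192 to 19026872), was lower in 35S::KNAT1 under PAC. Its level there was 38.7, 31 and 40.3 CPM in wild type and 29.4, 26.7 and 25.4 CPM in 35S::KNAT1, with no overlap, although wild-type replicate 2 stood just above the highest 35S::KNAT1 library. The log2 difference was -0.43 ± 0.12 (SE, adjusted p = 0.0128). The call was lost without wild-type PAC replicate 3 (-0.36, adjusted p = 0.0657) and without 35S::KNAT1 PAC replicate 3 (-0.39, adjusted p = 0.0546). Under PAC+GA3 the levels were 28.3, 26.8 and 32.2 CPM in wild type and 31.2, 24 and 24.3 CPM in 35S::KNAT1, which overlapped, and the log2 difference of -0.13 ± 0.12 (SE, adjusted p = 0.474) was not called. An antisense long noncoding RNA, AT3G51238, overlaps F3H, and since the strand setting of the counting is not known, reads of the pair cannot be told apart. Protein-coding loci also overlap TT4 (AT5G13940) and MYB11 (AT3G62615), and the same limit may apply there.

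TT4, the chalcone synthase gene (chromosome 5, 4488688 to 4490264), was not called between the genotypes. Under PAC its level was 163, 130 and 154 CPM in wild type and 160, 123 and 124 CPM in 35S::KNAT1, with overlapping libraries, and the log2 difference was -0.13 with a 95% interval from -0.54 to 0.27. Under PAC+GA3 it was 110, 95.2 and 108 CPM in wild type and 162, 100 and 94.8 CPM in 35S::KNAT1. The last group was split, with replicate 1 far above the others, and this was 1 of the 3 libraries of high rRNA share. The log2 difference there was 0.19 ± 0.19 (SE, adjusted p = 0.521) with that library and -0.10 without it, so its direction rested on that library.

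FLS1, which commits the pathway to flavonols (chromosome 5, 2803957 to 2805606), was likewise not called between the genotypes. Under PAC it stood at 40.7, 33.5 and 36.7 CPM in wild type and 44.9, 36.8 and 35.8 CPM in 35S::KNAT1, a log2 difference of 0.08 ± 0.13 (SE, adjusted p = 0.687) that was -0.03 without 35S::KNAT1 PAC replicate 1. Under PAC+GA3 it stood at 26.3, 23.3 and 28.7 CPM in wild type and 38.3, 30.4 and 27.1 CPM in 35S::KNAT1, a log2 difference of 0.29 ± 0.13 (SE, adjusted p = 0.115). The groups overlapped in both media. The difference under PAC+GA3 was called under total-count scaling (0.39, adjusted p = 0.0236), with the replicate block (0.29, adjusted p = 0.0348) and without 35S::KNAT1 PAC+GA3 replicate 3 (0.40, adjusted p = 0.043).

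Among the regulators, MYB12 (chromosome 2, 19476337 to 19479478) was higher in 35S::KNAT1 in both media. Its level under PAC was 4.25, 4.1 and 5.55 CPM in wild type and 7.07, 7.75 and 7.72 CPM in 35S::KNAT1. Under PAC+GA3 it was 3.95, 3.81 and 4.37 CPM in wild type and 10.3, 8.88 and 7.97 CPM in 35S::KNAT1. All 6 libraries of the line lay above all 6 of wild type. The log2 difference was 0.70 ± 0.16 (SE, adjusted p = 0.00358) under PAC and 1.16 ± 0.16 (SE, adjusted p = 2.74e-05) under PAC+GA3, or 1.62-fold and 2.24-fold. These rest on 37 to 59 counts per wild-type library and 73 to 124 per 35S::KNAT1 library, and both were called in all 20 alternative analyses. The summed level of the 5 root markers was 3730 to 5920 CPM in wild type and 3590 to 4200 CPM in 35S::KNAT1, a sum that is nearly all PYK10 (group means of 3800 to 4800 CPM). PYK10 itself had lower means in the line, at log2 -0.28 under PAC (adjusted p = 0.19) and -0.29 under PAC+GA3 (adjusted p = 0.18), and was not called. The other root markers had higher means in the line in both media, with EXPA7 called (log2 0.82 and 0.96). Their log2 differences were 0.05 and 0.42 for COBL9, 0.41 and 0.83 for EXPA18 and 0.80 and 0.75 for PRP3, none of them called. The part of tissue makeup in the MYB12 difference was not tested.

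MYB111 (chromosome 5, 19998952 to 20001378), the relative known from cotyledons, was not called between the genotypes. The log2 difference was -0.01 under PAC (95% interval -0.43 to 0.42) and 0.19 under PAC+GA3 (95% interval -0.28 to 0.67), at 19 to 48 counts a library. MYB11 (chromosome 3, 23154758 to 23156585) had 1, 3 and 0 counts in wild type under PAC and 0, 1 and 2 under PAC+GA3. In 35S::KNAT1 it had 0, 0 and 1 counts under PAC and 0 in all 3 libraries under PAC+GA3. The limit that a count of 0 allows, 3 counts, is 0.219 to 0.317 CPM depending on the library, so no difference in MYB11 was detectable at this depth.

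In all, 3 of the 6 tested genes were called between genotypes under PAC, 1 higher and 2 lower, where 25.2% of all tested genes were called, 12.3% higher and 12.9% lower. The same 3 had no overlap between the genotypes' libraries, against 40.4% of all tested genes. Under PAC+GA3, 2 of 6 were called, MYB12 and TT5, against 25.5% of all tested genes, and these 2 had no overlap, against 38.6%. With so large a share of all genes called, these counts say little about the genes as a group. Scaled to total counts alone, 67.4% of the called genes were higher under PAC and 66.5% under PAC+GA3, against 48.7% and 46.9% after TMM scaling, with the median of all genes at 0.10 and 0.12 on the log2 scale. Under that scaling TT5 and F3H were still called lower and MYB12 higher under PAC. Dropping the 3 libraries with much rRNA left a lone wild-type PAC library, assumed to vary like the others, and the differences under PAC were -0.86 for TT5 (adjusted p = 0.000201), -0.51 for F3H (adjusted p = 0.0193) and 0.82 for MYB12 (adjusted p = 0.0232).

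**Figure D2:**
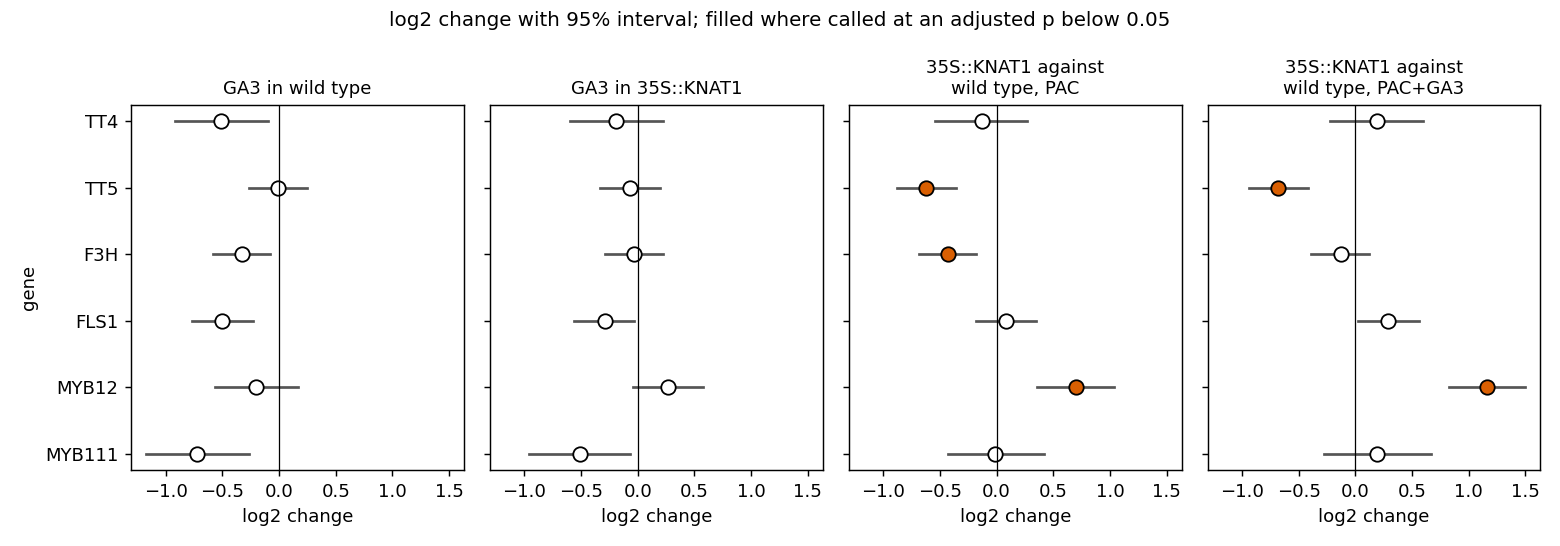
log2 change of each of the 6 tested genes with its 95% interval in 4 comparisons: GA3 in wild type, GA3 in 35S::KNAT1, and 35S::KNAT1 against wild type in PAC and in PAC+GA3. Filled points passed an adjusted p of 0.05: TT5 at -0.62 and -0.68, MYB12 at 0.70 and 1.16, and F3H at -0.43 in PAC alone, and no point in either GA3 comparison.

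The balance among the genes within a library does not depend on how libraries are scaled. Of the 15 pairs of the 6 tested genes, 6 had ratios of counts that did not overlap between the 6 wild-type and the 6 35S::KNAT1 libraries. Each of these pairs holds TT5, F3H or MYB12, the genes called between genotypes, so the ratios are not separate from those calls. How many pairs of other genes separate in this way was not counted. Single genes did not overlap in 40.4% of cases under PAC and 38.6% under PAC+GA3. Those shares compare 3 against 3 libraries within 1 medium, a looser rule than 6 against 6. They are therefore no measure for the count of pairs. TT5 or F3H was in 4 of the 6 pairs with FLS1 or MYB12 as the partner. The ratio of TT5 to FLS1 counts had a geometric mean of 1.42 in wild type and 0.797 in 35S::KNAT1. The ratio of F3H to FLS1 had means of 1.05 and 0.761, and that of TT5 to MYB12 of 10.2 and 3.41. The ratio of TT4 to TT5 was 2.82 in wild type and 4.45 in 35S::KNAT1. The ratio of TT4 to FLS1, the first and the last enzyme gene, had means of 4.01 and 3.55. On the log2 scale it was 1.95 to 2.07 in wild type and 1.74 to 1.84 in 35S::KNAT1 under PAC, without overlap. Under PAC+GA3 it was 1.91, 2.03 and 2.06 in wild type and 1.72, 1.80 and 2.08 in 35S::KNAT1, so 1 library of the line brought the overlap.

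**Figure D3:**
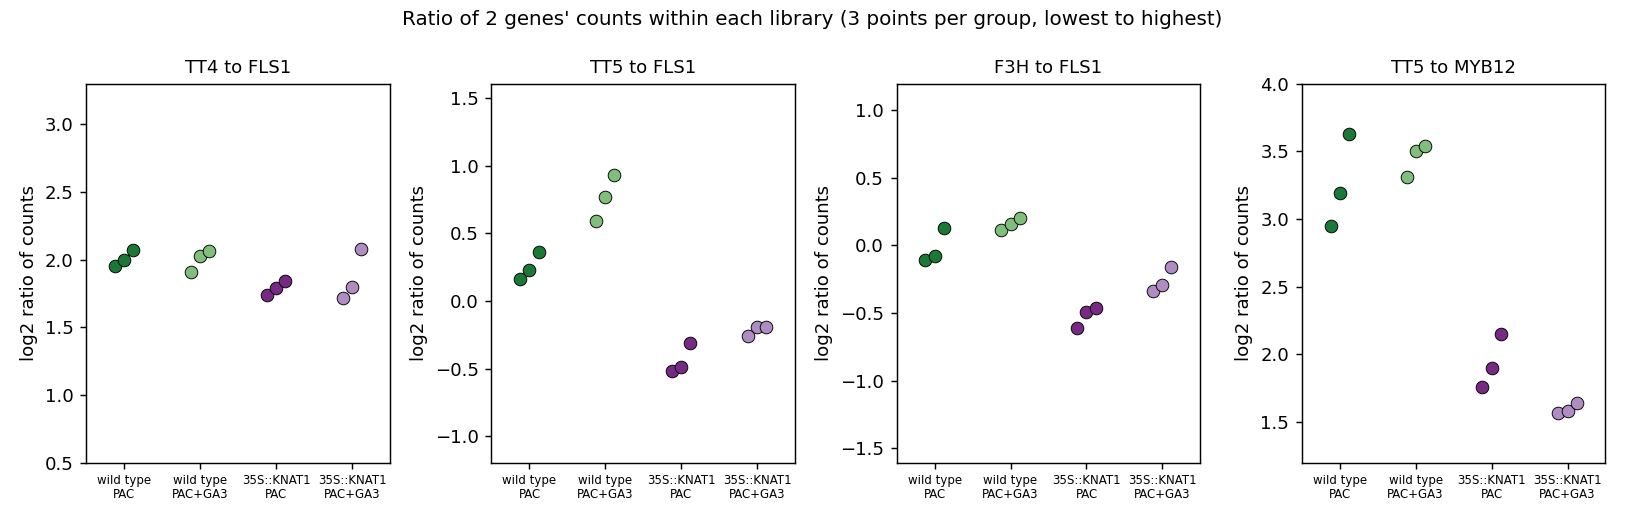
log2 ratio of the counts of 2 genes within each library, for TT4 to FLS1, TT5 to FLS1, F3H to FLS1 and TT5 to MYB12, with 3 libraries per group and axes of equal span. TT5 to FLS1, F3H to FLS1 and TT5 to MYB12 lie lower in each 35S::KNAT1 library than in each wild-type library, as does TT4 to FLS1 except in 1 PAC+GA3 library at 2.08.

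After 5 h of GA3 none of the 6 tested genes was called in wild type, where 0.0453% of all tested genes (9 of 19879) were called. DESeq2 also called 0 of the 6, and 4 had an unadjusted edgeR p below 0.05, as had 1746 of all 19879 tested genes. TT4, from 163, 130 and 154 to 110, 95.2 and 108 CPM, had a log2 change of -0.51 ± 0.19 (SE, adjusted p = 0.472). FLS1, from 40.7, 33.5 and 36.7 to 26.3, 23.3 and 28.7 CPM, had one of -0.50 ± 0.13 (SE, adjusted p = 0.255). In both genes every PAC+GA3 library lay below every PAC library. MYB111, at 3.81, 3.61 and 3.67 CPM in PAC and 2.19, 2.88 and 1.73 CPM in PAC+GA3, also did not overlap and had a log2 change of -0.72 ± 0.22 (SE, adjusted p = 0.335). So 3 of the 6 had no overlap in the lower direction, against 5.94% of all tested genes, and the median log2 change of the 6 was -0.42 against 0.00 for all genes. The 3 others overlapped, with F3H at -0.33 ± 0.12 (SE, adjusted p = 0.444), MYB12 at -0.20 ± 0.17 (SE, adjusted p = 0.796) and TT5 at -0.01 ± 0.12 (SE, adjusted p = 1). With the replicate number as a block, FLS1 was called (-0.50 ± 0.10, SE, adjusted p = 0.026) and TT4 was not (adjusted p = 0.0523), while 94 of all genes were called.

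In 35S::KNAT1 none of the 6 was called after GA3 either by edgeR or DESeq2, against 0.111% of all tested genes by edgeR, and 2 of the 6 had an unadjusted edgeR p below 0.05. FLS1 went from 44.9, 36.8 and 35.8 to 38.3, 30.4 and 27.1 CPM, with overlap and a log2 change of -0.29 ± 0.13 (SE, adjusted p = 0.838). MYB111 went from 3.79, 3.92 and 3.28 to 2.15, 2.78 and 2.8 CPM, without overlap, a log2 change of -0.51 ± 0.21 (SE, adjusted p = 0.793). MYB12 stood the other way, with every PAC+GA3 library above every PAC library and a log2 change of 0.27 ± 0.15 (SE, adjusted p = 0.942). No overlap was seen in 6.82% of all tested genes in the lower and 6.11% in the higher direction. TT4 was at -0.19 ± 0.19 (SE, adjusted p = 0.989) on the log2 scale, and at -0.48 without 35S::KNAT1 PAC+GA3 replicate 1 (adjusted p = 0.428), the library that stood at 162 CPM. TT5 and F3H were at -0.07 and -0.03.

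Whether the response to GA3 differed between the genotypes was tested as an interaction, in which 0 genes of 19879 were called by edgeR and 0 by DESeq2, and 363 had an unadjusted edgeR p below 0.05. The difference of the 2 log2 changes, 35S::KNAT1 minus wild type, was largest among the 6 for MYB12, at 0.46 with a 95% interval from -0.02 to 0.94. It was 0.32 for TT4 (-0.26 to 0.89), 0.30 for F3H (-0.06 to 0.66) and 0.21 for FLS1 (-0.18 to 0.59). For MYB111 it was 0.20 (-0.43 to 0.84) and for TT5 -0.06 (-0.43 to 0.31). Each of these intervals includes 0, and their width does not show that the responses were alike.

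Since the GA3 changes of most genes lay on the same side in both genotypes, their average over the genotypes was also tested, a contrast chosen after the data were seen. MYB111 was lower in all 6 PAC+GA3 libraries, at 1.73 to 2.88 CPM, than in all 6 PAC libraries, at 3.28 to 3.92 CPM, a separation that 0.302% of all tested genes had in that direction. Its averaged log2 change was -0.62 ± 0.15 (SE, adjusted p = 0.0708). That of FLS1 was -0.40 ± 0.09 (SE, adjusted p = 0.053) and that of TT4 -0.35 ± 0.13 (SE, adjusted p = 0.304). None of the 6 was called by edgeR, against 0.775% of all tested genes, DESeq2 called 1, and 4 had an unadjusted edgeR p below 0.05. FLS1 was called in 6 of 19 alternatives, TT4 in 3 of 19 and MYB111 in 2 of 18. With the replicate block 3 of the 6 were called, at adjusted p of 0.0035 for FLS1, 0.0215 for TT4 and 0.0307 for MYB111, where 588 of all genes were. Leaving out 35S::KNAT1 PAC+GA3 replicate 1 called TT4 (-0.49, adjusted p = 0.0125) and FLS1 (-0.47, adjusted p = 0.0151), and leaving out wild-type PAC+GA3 replicate 2 called MYB111 (-0.71, adjusted p = 0.0467).

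The enzyme genes varied together within groups as well. Replicate 1 was the highest of its group in all 4 groups for TT4 and for TT5, in 3 of 4 for FLS1 and in 2 of 4 for F3H. Taken as deviations from the group means of log2 CPM over the 12 libraries, TT4 correlated with FLS1 at r = 0.931, with F3H at 0.864 and with TT5 at 0.822. These libraries share their scaling and replicate number, so the values describe these libraries only. Over the 12 libraries without removing the groups, TT4 and FLS1 correlated at r = 0.898, but TT5 and FLS1 at -0.10, and TT5 and MYB12, which lay on opposite sides between the genotypes, at -0.84. Within groups, the deviations of MYB12 correlated at 0.266 with TT5, 0.467 with TT4, 0.672 with F3H and 0.409 with FLS1. MYB111 did not follow the enzyme genes within groups, with deviations correlated at -0.467 with TT4, -0.196 with TT5, -0.518 with F3H and -0.543 with FLS1, at its low counts.

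Outside the 7, the gene whose log2 CPM was most like the mean of the 4 enzyme genes over the 12 libraries was UGT78D2, a flavonoid glucosyltransferase, at Pearson r = 0.93. It was followed by APL3 (0.887), AT3G23530 (0.866), the sinapate glucosyltransferase gene UGT84A2 (0.857), AT3G61820 (0.847), AT5G39080 (0.837), FH8 (0.836), the sucrose transporter gene SUC1 (0.835), SBP2 (0.83) and MTM1 (0.827). On deviations from the group means UGT78D2 stood at 0.893, and these genes ranged from 0.683 (AT3G23530) to 0.912 (APL3). The genes most like MYB12 were AT4G26055 (0.982), AT3G07380 (0.977) and AT3G12040 (0.975). Each was itself called between genotypes under PAC, and on deviations they stood at 0.777, 0.666 and 0.64. Those most like MYB111 were AT1G09900 (0.912), LSH3 (0.886) and IQD25 (0.884), at 0.765, 0.724 and 0.707 on deviations.

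The other enzymes of flavonoid synthesis and transport were read as a list of 11, of which 9 were tested. Under PAC 5 were called lower and 1 higher in 35S::KNAT1, with a median log2 difference of -1.10 against 0.00 for all genes, of which 25.2% were called. Among the relatives of FLS1 on chromosome 5, FLS4 (log2 -0.22, adjusted p = 0.564) was not called, as FLS1 was not, and FLS6 was too low to test. FLS2 (AT5G63580) went from 9.47 to 0.955 CPM, a log2 difference of -3.29 ± 0.28 (SE, adjusted p = 1.21e-07), and FLS3 from 22.6 to 10.6 CPM, -1.10 ± 0.16 (SE, adjusted p = 7.91e-05). FLS5 stood higher, at 57 and 83.7 CPM, 0.55 ± 0.12 (SE, adjusted p = 0.00259), but not without the 3 libraries of high rRNA share (adjusted p = 0.0772). FLS2 to FLS5 are neighbours of similar sequence, so reads may be divided between them, and FLS1 lies elsewhere on the chromosome. The late anthocyanin genes DFR (5.11 to 1.33 CPM), LDOX (5.39 to 1.99 CPM) and TT19 (3.23 to 1.51 CPM) were called lower, the last not without wild-type PAC replicate 1 (adjusted p = 0.0665) or 35S::KNAT1 PAC replicate 2 (adjusted p = 0.0751). CHIL, a chalcone isomerase relative that aids chalcone synthase, stood at 41.5 and 43.4 CPM and was not called. Under PAC+GA3, where 25.5% of all tested genes were called, 4 of the 9 were lower, namely DFR, LDOX, FLS2 and FLS3. FLS5 was higher there, a call lost in 6 of 20 alternatives. In 35S::KNAT1 under PAC+GA3, DFR stood at 0.199 CPM, below the level of 3 counts, and LDOX at 0.346 CPM, just above it. The sizes of these differences are therefore poorly resolved.

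Sugar and other groups are added to flavonols and anthocyanins by the enzymes of a list of 10, of which 9 were tested. Under PAC 4 were called lower and 1 higher in 35S::KNAT1, and under PAC+GA3 2 lower and 1 higher, against 25.2% and 25.5% of all tested genes called in these comparisons. UGT78D1, which adds rhamnose to flavonols, went from 52.8 to 24.2 CPM under PAC, a log2 difference of -1.12 ± 0.12 (SE, adjusted p = 1.53e-06), and from 52.2 to 20.4 CPM under PAC+GA3, -1.36 ± 0.12 (SE, adjusted p = 1.49e-07). The other genes called lower, UGT75C1 in both media and UGT79B1 and 5MAT under PAC, act on anthocyanins. Under PAC+GA3, UGT79B1 stood at 0.239 and 0.0568 CPM and 5MAT at 0.316 and 0.196 CPM, near or below the level of 3 counts. UGT73C6, a flavonol glucosyltransferase gene, stood at 0.777 and 3.34 CPM under PAC and 0.418 and 2.3 CPM under PAC+GA3, and its higher call was lost in 10 and 8 of 19 alternatives. The 5MAT call was lost in 6 of 19 alternatives and that of UGT75C1 under PAC+GA3 in 5.

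Of 9 phenylpropanoid entry genes, PAL3, a phenylalanine ammonia-lyase gene, was higher in 35S::KNAT1 in both media (log2 1.89 and 2.19) and PAL4 lower (-0.88 and -0.93). C4H was called lower under PAC (-0.22), a call that was lost in 13 of 20 alternatives, and stood at the same -0.22 under PAC+GA3 (adjusted p = 0.0526), where 5 of 20 alternatives called it. Of 10 anthocyanin regulators 5 were tested, and EGL3, a bHLH factor, was the 1 called lower in each medium (-0.42 and -0.57). Under PAC its call was lost in 11 of 20 alternatives. Of 9 light and UV-B regulators, 3 were lower and 1 higher under PAC, and 4 lower and 1 higher under PAC+GA3, against the same 25.2% and 25.5%. HYH, the close relative of HY5, was lower (-1.49 and -1.83), as were RUP2, a repressor of the UV-B receptor (-0.92 and -0.83), and BBX21 (-0.31 and -0.36), and BBX22 was higher (0.67 in both). HY5 itself was at -0.20 under PAC (adjusted p = 0.33) and was called lower under PAC+GA3 (-0.47), though not without 35S::KNAT1 PAC+GA3 replicate 2 (adjusted p = 0.06) or replicate 3 (adjusted p = 0.0628), and the BBX21 call under PAC was lost in 6 of 20 alternatives. Of 6 repressors, MYB3 was called lower under PAC+GA3 (-0.60), a call lost in 4 of 20 alternatives. Under PAC 0 of the 6 were called, and MYB3 was at -0.35 (adjusted p = 0.158). There 2 of the 6 had an unadjusted edgeR p below 0.05, as had 7196 of all 19879 tested genes.

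After GA3, 0 of the 47 tested genes of these 6 lists were called by edgeR in either genotype. Of all tested genes 0.0453% were called in wild type and 0.111% in 35S::KNAT1. An unadjusted edgeR p below 0.05 was found for 14 of the 47 in wild type, where 1746 of all 19879 genes had one. In 35S::KNAT1 it was found for 11 of the 47 and for 1116 of all genes. The largest changes were those of the anthocyanin genes. In wild type LDOX was at -1.79 ± 0.32 (SE, adjusted p = 0.0535), DFR at -2.00 ± 0.38 (SE, adjusted p = 0.073) and UGT79B1 at -2.75 ± 0.50 (SE, adjusted p = 0.0535), each without overlap between the media. These 3 were called with the replicate block, as were TT19 and UGT75C1 (adjusted p = 0.00152, 0.0125, 0.0148, 0.0186 and 0.0292). Out of 19 alternatives, LDOX was called in 7, UGT79B1 in 3 and DFR in 2, and TT19 and UGT75C1 in 1 each. CHIL was at -0.30 ± 0.11 (SE, adjusted p = 0.468) beside -0.51 for TT4. In 35S::KNAT1, LDOX was at -2.45 (adjusted p = 0.067), going from 1.99 to 0.346 CPM, and was called in 5 of 19 alternatives. DFR went from 1.33 to 0.199 CPM there, below the level of 3 counts, so the size of its change is not resolved. Averaged over the genotypes, 5 of the 47 genes were called lower after GA3, against 0.775% of all tested genes, namely LDOX (log2 -2.12), DFR (-2.30), UGT79B1 (-2.39), TT19 (-1.18) and the coumarate ligase gene 4CL3 (-0.53). UGT79B1 stood near or below the level of 3 counts under PAC+GA3 in both genotypes, as DFR did in 35S::KNAT1. The sizes of their averaged changes, and of the UGT79B1 change in wild type, are therefore not resolved. The 4CL3 call was lost in 12 of 19 alternatives, that of UGT79B1 in 12 of 18 and that of TT19 in 9 of 18.

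**Figure D4:**
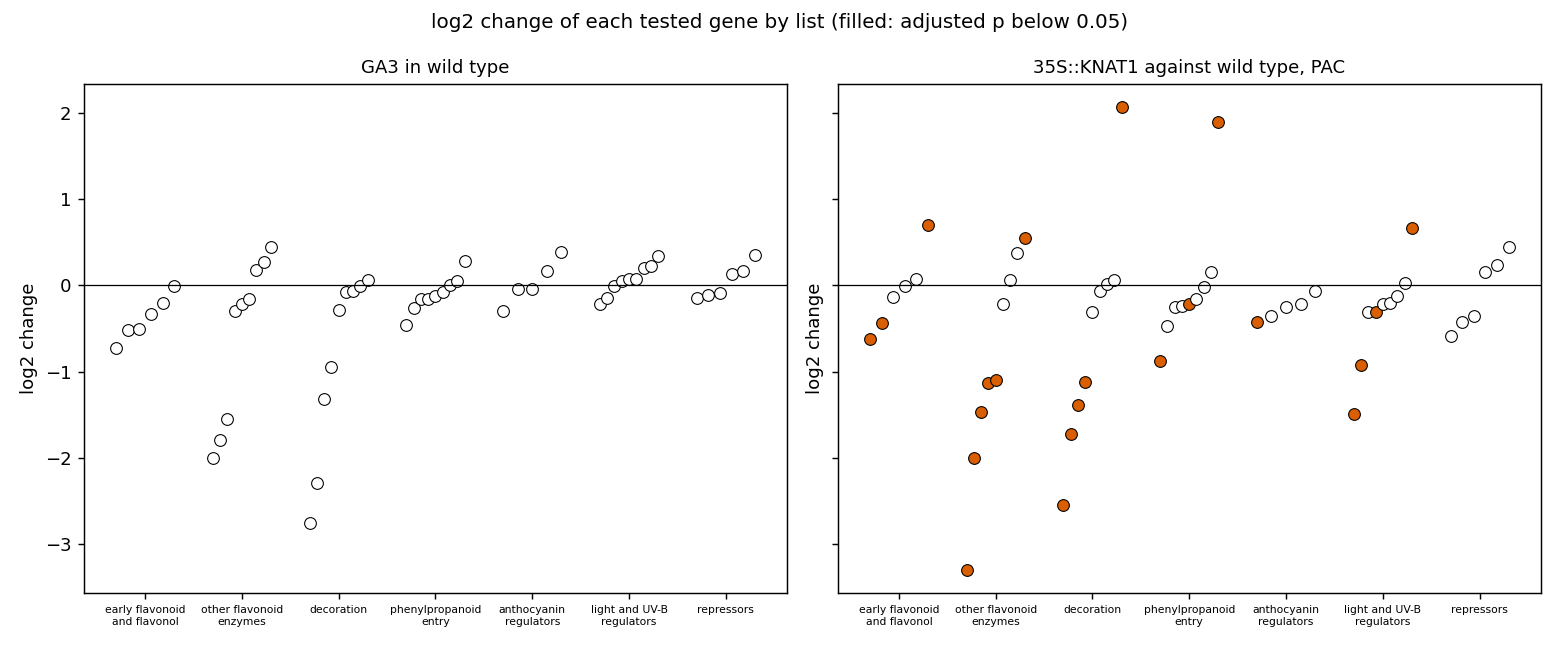
log2 change of every tested gene in the set described here and in 6 lists of related genes, in order within each list, for GA3 in wild type and for 35S::KNAT1 against wild type in PAC. Filled points passed an adjusted p of 0.05. The early genes lie between -0.72 and -0.01 after GA3, while the lowest point between genotypes is FLS2 at -3.29, followed by UGT79B1 at -2.54.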

How the data were processed

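Raw read counts per gene, 1 column per library, were deposited by the authors and were used as deposited. Per the submitters' processing notes, the build was TAIR10 and the tools were TopHat2 2.1, edgeR 3.0.2, DESeq2 1.16.1, FastQC 0.11.5 and cutadapt 1.8.3, in roles that are not stated. What counted the reads, and with which strand setting, is not given in the sources used here, and the labels' protocols name 2 extraction and 2 library kits. Of the 32673 loci, 31901 were found in the RefSeq TAIR10.1 table, all overlapping its positions, and 26 blank or shared loci, FLS2 among them, were set from coordinates.

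The 7 genes and all lists were chosen with earlier results of these data known. Named genes of a list are the 4 of smallest p whose groups do not overlap, and any called. Genes were filtered with filterByExpr (minimum count 10), scaled by TMM and fitted in edgeR 4.0.16 (R 4.3.3) as 4 group means over 12 libraries, with robust quasi-likelihood dispersions. SE is the log2 change over the square root of its F value. The fit was tested on simulated data. The common coefficient of variation was 10.3%, and replicates differed by 3.75 to 15.03 chi-square per degree of freedom, so none was a copy. Limits from counts cover counting error only. Groups and replicate numbers come from the labels' titles.

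Same-numbered libraries deviated together (r = 0.359, 0.17 and 0.288 for GA3 in wild type, 0.169, 0.12 and 0.203 in 35S::KNAT1, 0.25, 0.22 and 0.103 for genotype under PAC), and a replicate block is given where it changes a call. Under PAC+GA3 the genotypes gave 0.134, -0.029 and 0.079, which shows little pairing. The block was 1 fit over all 12 libraries, so its values for that comparison also assume paired replicate numbers. Alternatives tried were a fit of only the groups compared, DESeq2 1.42.0, the block, each library left out, scaling to total counts or by DESeq2 size factors, and either no filter or one of 5 CPM in 3 libraries. Leaving out the 3 libraries of high rRNA share, and averaging GA3 over the genotypes, were added after the data were seen.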

Additional observations from a re-analysis of the deposited data

How the results depend on the processing

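TT5 and MYB12 kept their genotype calls in both media in all 20 alternatives, and 0 of the 6 genes were called for GA3 in 35S::KNAT1 or for the interaction in any. For GA3 in wild type 1 of the 6 was called with the replicate block. Over all genes, GA3 in wild type gave 9 calls, and 14 with total-count scaling, 18 with no filter, 43 with DESeq2, 2 with only the groups compared, 94 with the block, 3 to 16 with a library left out and 0 when the 3 libraries with much rRNA were dropped. GA3 in 35S::KNAT1 gave 22, and 44, 37, 81, 2 to 24 and 9 with DESeq2, only the groups compared, the block, a library left out and without those 3 libraries. Genotype under PAC gave 5017, and 2577 without the 3 libraries, which also leaves fewer samples. The averaged GA3 contrast called 0 of the 6 genes, and 1 under total-count scaling, no filter and DESeq2 each, 3 with the block, 0 to 2 with a library left out and 2 without the 3 libraries. Over all genes it called 154, and 242, 588, 68 to 195 and 47 with DESeq2, the block, a library left out and without those 3 libraries. The replicate block lost no genotype call among the 6 genes. Changes near 0 turned sign: TT5 after GA3 in wild type (0.00 with no filter, the stricter filter and the block, -0.11 to 0.14 with a library left out) and in 35S::KNAT1 (-0.19 to 0.03), F3H after GA3 in 35S::KNAT1 (-0.17 to 0.03), FLS1 between genotypes under PAC (-0.03 to 0.16, and -0.05 without the 3 libraries), MYB111 there (0.09 with total-count scaling, -0.06 to 0.06), TT4 between genotypes under PAC+GA3 (-0.10 to 0.33 with a library left out, and -0.10 without the 3 libraries), TT5 in the interaction (0.05 without the 3 libraries, -0.20 to 0.05 with a library left out), and, averaged, TT5 (-0.10 to 0.04) and MYB12 (-0.02 to 0.12). The cause of these shifts was not tested. At 19 to 48 counts a library MYB111 has the widest intervals of the 6, and MYB11 is below what this depth resolves.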
